A study of Mus musculus with 8 samples.

Results

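The genes described here are 10 genes of ovulation and cumulus expansion, the loosening of the cell layer around the oocyte before it leaves the follicle: Areg, Ereg, Btc, Has2, Ptx3, Tnfaip6, Vcan, Edn2, Runx1 and Runx2. They were chosen by symbol, and every probe that the platform annotation assigned to one of these symbols was taken. The annotation named a probe for 8 of the 10 genes, with 9 probes in all, among 18069 genes named on the array. Areg and Runx2 had no named probe and were not analysed here. Of the 9 probes, 7 could be tested, for 7 genes. The probe for Has2 and the dimmer of the probes for Vcan stayed in all 8 ovaries under a relative intensity of 0.2, which is taken as the lower limit of measurement on these arrays.

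In background, the surge of luteinizing hormone (LH) acts on the granulosa cells that line a ripe follicle, and these release the epidermal growth factor (EGF)-like ligands amphiregulin, epiregulin and betacellulin. The ligands act on EGF receptors of the cumulus cells, which then make hyaluronan through Has2 and the proteins encoded by Ptx3 and Tnfaip6, which link the hyaluronan into a matrix. Versican, the product of Vcan, is a proteoglycan of that matrix, and endothelin 2 is a contracting peptide made by granulosa cells shortly before the follicle ruptures. The transcription factors RUNX1 and RUNX2 are induced by LH in granulosa cells.

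The ovaries came from female lethal yellow (LY) mice, C57BL/6J of genotype Ay/a, in which the agouti gene is expressed outside the skin and obesity with insulin resistance develops. All 8 animals carried this allele. From 120 to 180 days of age they were gavaged every day for 60 days with the vehicle DMSO (4 mice) or with pioglitazone in DMSO (4 mice), an agonist of the nuclear receptor PPARγ. For the daily amount of drug, the sample records have 0.1 mg and the methods 0.01 mg. RNA of 1 ovary from each mouse was hybridized to 1 CodeLink array, with no pooling. The stage of the estrous cycle is not given in the sources used here. Untreated lean mice were not analysed here.

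The 8 arrays were alike in coverage, with 82.5% to 83.9% of spots at 0.2 or more, 47 to 211 missing spots, and correlations between arrays of 0.949 to 0.987. Lists of 12 markers each were taken for granulosa, luteal and oocyte cells. Of those named on the array, 10 of 11, 9 of 9 and 11 of 12 could be tested, in that order. Most probes of the array could be tested (30634 of 36227), so these counts do not measure which cells were present. The granulosa marker Inhbb was under 0.2 in every ovary. Values are given below in relative intensity units, where 1 is the median spot of an array. They compare mice for 1 probe, and levels of different probes are not compared. The tissue is a whole ovary, so fewer cells of a type and less RNA per cell cannot be told apart.

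The promoters of Edn2 and Vcan are shown because both genes were highest in the same 3 mice, and that of Tnfaip6 because it peaked in 1 of these mice too. The sequences are the 250 bases before a RefSeq start site in GRCm38.p6, written 5′ to 3′ on the strand of the gene, and the capitals mark the motifs found. Edn2 lies on chromosome 4 (window chr4:120160956-120161205, plus strand), and its capitals mark ACCACA, the reverse complement of the core motif TGTGGT that RUNX proteins bind, at bases -65 to -60 from the start. Vcan lies on chromosome 13 (window chr13:89742513-89742762, minus strand), and its capitals mark 2 copies of the GC box GGGCGG, on opposite strands, at -219 to -214 and -10 to -5. The Vcan locus reaches to 89743027, so this window precedes a start inside the locus and not its outermost one. Tnfaip6 lies on chromosome 2 (window chr2:52037863-52038112, plus strand), and its capitals mark a GC box at -171 to -166 and the AP-1 motif TGANTCA at -142 to -136.
Edn2: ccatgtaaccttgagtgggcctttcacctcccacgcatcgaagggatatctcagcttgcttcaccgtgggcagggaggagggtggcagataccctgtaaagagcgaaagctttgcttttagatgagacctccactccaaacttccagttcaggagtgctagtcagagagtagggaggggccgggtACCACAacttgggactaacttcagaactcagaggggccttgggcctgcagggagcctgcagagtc
Vcan: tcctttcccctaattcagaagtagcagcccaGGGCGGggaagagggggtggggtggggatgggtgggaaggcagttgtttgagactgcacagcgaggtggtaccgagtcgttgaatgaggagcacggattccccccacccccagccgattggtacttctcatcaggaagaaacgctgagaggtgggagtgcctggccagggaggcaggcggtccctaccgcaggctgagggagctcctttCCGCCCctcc
Tnfaip6: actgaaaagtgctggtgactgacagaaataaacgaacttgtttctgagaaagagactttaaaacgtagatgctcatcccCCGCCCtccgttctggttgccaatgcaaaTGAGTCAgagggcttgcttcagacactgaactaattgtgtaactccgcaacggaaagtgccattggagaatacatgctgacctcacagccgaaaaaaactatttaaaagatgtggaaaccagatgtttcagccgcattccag
Of 32851 mouse promoter windows of this length, 14.0% held the RUNX letters on either strand, 32.7% the GC box and 6.75% the AP-1 motif. Such a match is a description of the sequence, and no binding was measured.

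Across the 7 tested members, no difference between pioglitazone and vehicle ovaries was detected beyond the spread between mice. None of the 7 had an unadjusted p under 0.05 with limma fitted over 30634 probes, where 5.5% of all probes did (1685 probes, of which 603, or 1.97%, were higher and 1082, or 3.53%, lower with pioglitazone). With Benjamini-Hochberg adjustment, 0.0% of the probes on the array passed, with limma or with the methods' t-test, which had 2130 probes at an unadjusted p under 0.05. In 0 of the 9 member probes did the groups fail to overlap, against 4.59% of all tested probes. The log2 fold change of pioglitazone over vehicle was negative for 6 members and positive for 1, with a median of -0.23 beside -0.03 for all probes tested. The unadjusted p-values lay between 0.30 and 0.869, and the adjusted ones between 0.88 and 0.982. With 4 mice in each group, the smallest p that the exact permutation test can give is 0.0286.

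**Figure D1:**
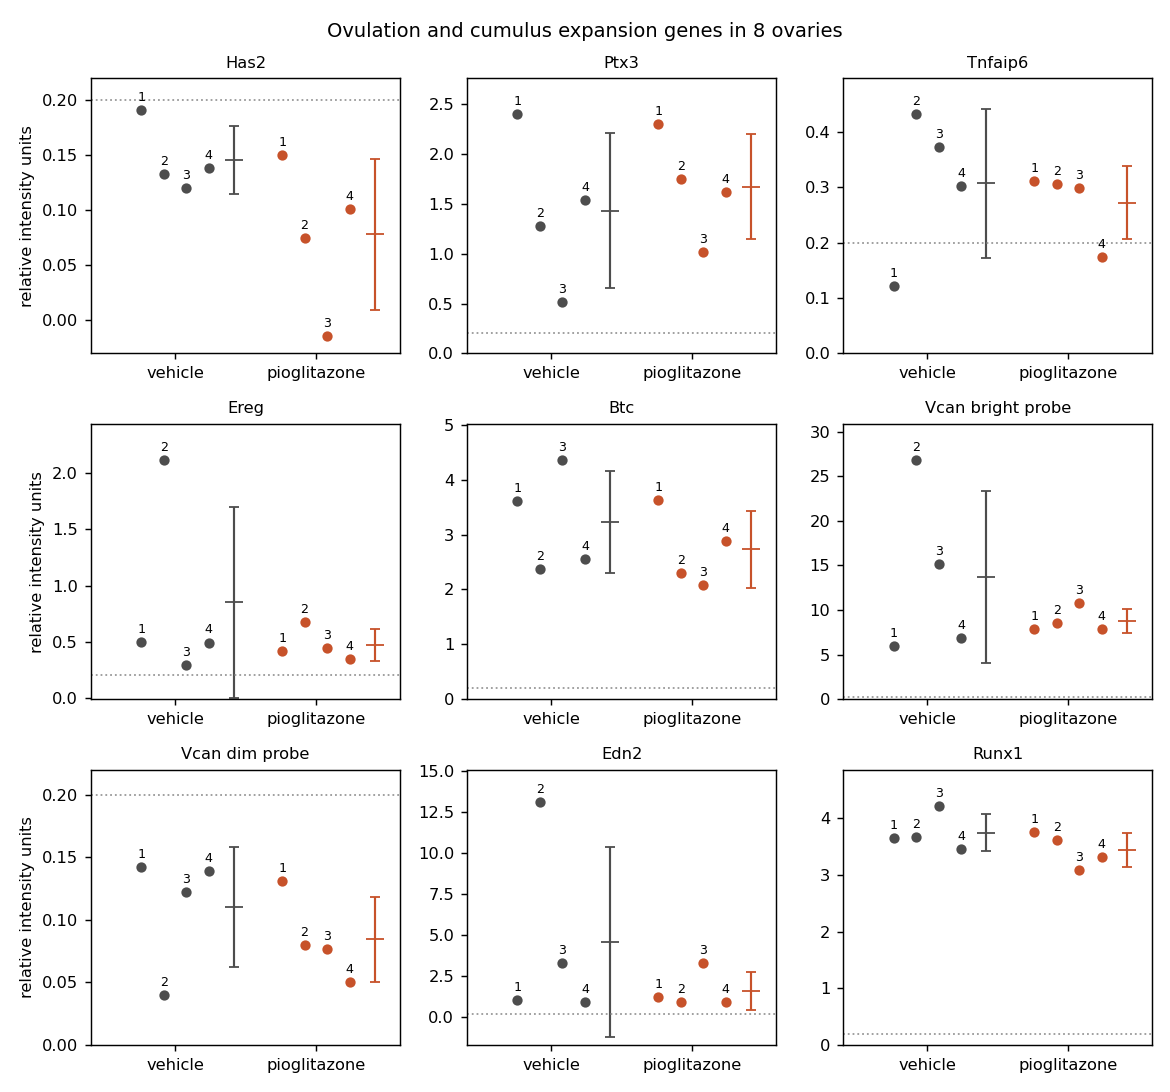
Each panel is 1 probe, with relative intensity units on a linear vertical axis and 1 numbered point per mouse (4 vehicle, grey, and 4 pioglitazone, orange). Bars to the right of each group are the mean and SD, and 0.2 is drawn as a dotted line. Vehicle mouse 2 stands above all other mice for Edn2 (13.1), Vcan (26.8), Ereg (2.12) and Tnfaip6 (0.432).

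Of the EGF-like ligands, Ereg and Btc were measured. The genes of the ligands are neighbours on chromosome 5 of GRCm38.p6, with Ereg at 91074617 to 91093649, Areg at 91139599 to 91148432 and Btc at 91357261 to 91402994. Ereg, which encodes epiregulin, read 0.50, 2.12, 0.29 and 0.493 in vehicle mice 1 to 4, and 0.42, 0.677, 0.446 and 0.35 in pioglitazone mice 1 to 4. Vehicle mouse 2 was 4.75 times the median of the other 7 mice, which read 0.29 to 0.677. The group means were 0.851 ± 0.852 (SD, n = 4) with vehicle and 0.473 ± 0.141 (SD, n = 4) with pioglitazone, and the groups overlapped. The log2 fold change was -0.44 (SE 0.53, 95% interval -1.64 to 0.76, limma adjusted p = 0.905). Without vehicle mouse 2 the vehicle mean was 0.428, below that of pioglitazone.

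Btc, which encodes betacellulin, read 3.61, 2.38, 4.36 and 2.56 with vehicle and 3.64, 2.30, 2.09 and 2.89 with pioglitazone. Its highest value was in vehicle mouse 3 and its lowest in pioglitazone mouse 3, and vehicle mouse 2 was not among the high ones. The means were 3.23 ± 0.932 and 2.73 ± 0.695 (SD, n = 4), with a log2 fold change of -0.23 (SE 0.25, 95% interval -0.79 to 0.33, limma adjusted p = 0.894). The interval reaches from a ratio of 0.58 to one of 1.26.

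Has2, the hyaluronan synthase that is induced in cumulus cells, had no value at or above the limit of 0.2. It read 0.191, 0.133, 0.12 and 0.138 with vehicle, and 0.15, 0.0744, -0.0148 and 0.101 with pioglitazone. Since both groups were under the limit, no fold is given, and the exact permutation p was 0.114 (2-sided). A difference in Has2 was not detectable at this signal.

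Ptx3, which encodes the pentraxin that binds the hyaluronan matrix together, read 2.40, 1.28, 0.512 and 1.54 with vehicle and 2.30, 1.75, 1.02 and 1.62 with pioglitazone. In both groups mouse 1 had the highest value and mouse 3 the lowest. The 3 lowest Ptx3 values were in the 3 mice with the highest Edn2. The means were 1.43 ± 0.778 and 1.67 ± 0.527 (SD, n = 4). Ptx3 was the member with a positive log2 fold change, of 0.36 (SE 0.44, 95% interval -0.63 to 1.35, limma adjusted p = 0.905). Without vehicle mouse 3 it was -0.063.

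Tnfaip6, which encodes the hyaluronan-binding protein that transfers heavy chains of inter-alpha-inhibitor onto hyaluronan, was near the limit of 0.2. It read 0.122, 0.432, 0.373 and 0.302 with vehicle and 0.311, 0.306, 0.299 and 0.174 with pioglitazone, with 2 of 8 ovaries under the limit. The means of 0.307 ± 0.135 and 0.272 ± 0.066 (SD, n = 4) gave a log2 fold change of -0.07 (SE 0.39, 95% interval -0.93 to 0.80, limma adjusted p = 0.982). Its direction turned to 0.148 without vehicle mouse 2, to 0.077 without vehicle mouse 3 and to 0.138 without pioglitazone mouse 4.

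Vcan had a bright probe and a dim one. The bright probe read 5.98, 26.8, 15.2 and 6.86 with vehicle and 7.86, 8.52, 10.8 and 7.86 with pioglitazone. Vehicle mice 2 and 3 were the highest of all 8, vehicle mice 1 and 4 the lowest, and the pioglitazone mice lay between them. The means were 13.7 ± 9.69 and 8.77 ± 1.41 (SD, n = 4), and the log2 fold change was -0.39 (SE 0.43, 95% interval -1.36 to 0.59, limma adjusted p = 0.898). Without vehicle mouse 2 the vehicle mean was 9.35 and the log2 fold change 0.025. The dim probe read 0.0399 to 0.142 with vehicle and 0.0502 to 0.131 with pioglitazone, all under 0.2, and its lowest value was in vehicle mouse 2, where the bright probe was highest. RefSeq lists 7 transcripts of Vcan, and the position of the probes in them was not determined.

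Edn2 showed the widest spread of the members. It read 1.02, 13.1, 3.28 and 0.928 in vehicle mice 1 to 4, and 1.21, 0.94, 3.29 and 0.939 in pioglitazone mice 1 to 4. Of the 8 mice, 5 lay between 0.928 and 1.21, vehicle mouse 3 and pioglitazone mouse 3 were almost equal, and vehicle mouse 2 was 12.9 times the median of the others. The means were 4.59 ± 5.79 and 1.59 ± 1.14 (SD, n = 4). The log2 fold change was -0.88 (SE 0.81, 95% interval -2.70 to 0.93, limma adjusted p = 0.88), and an exact permutation test on the log2 values gave p = 0.543 (2-sided). Without vehicle mouse 2 the vehicle mean was 1.74 beside 1.59 with pioglitazone, and the log2 fold change was -0.092.

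Runx1, at chromosome 16, was the most even member. It read 3.65, 3.67, 4.22 and 3.46 with vehicle and 3.76, 3.61, 3.08 and 3.32 with pioglitazone. The means of 3.75 ± 0.327 and 3.44 ± 0.301 (SD, n = 4) gave a log2 fold change of -0.12 (SE 0.14, 95% interval -0.43 to 0.18, limma adjusted p = 0.895). The interval corresponds to ratios of 0.744 to 1.13, the narrowest among the members.

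**Figure D2:**
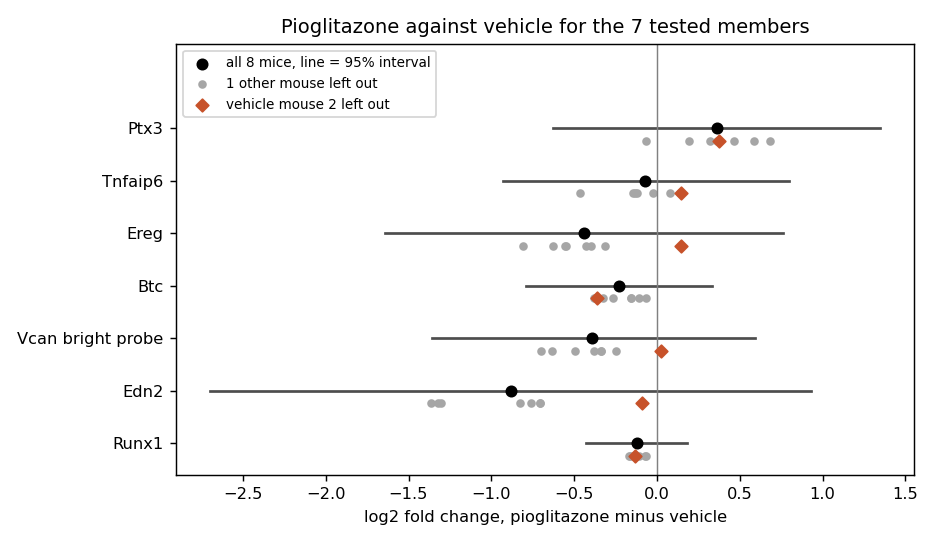
The horizontal axis is the log2 fold change of pioglitazone over vehicle for the 7 tested members. Black points and lines are the limma value and its 95% interval over 8 mice, grey points leave out 1 mouse, and orange diamonds leave out vehicle mouse 2. Every interval crosses 0, and the diamonds of Ereg, Tnfaip6 and Vcan lie on the other side of 0 from the black point while that of Edn2 lies at -0.092.

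The members differed most in how much they varied within a treatment. The SD of log2 values within groups was 1.4 for Edn2, which was larger than in 99.5% of tested probes. It was 0.92 for Ereg, larger than in 97.3%, and 0.75 for Ptx3, larger than in 94.8%. Vcan, with 0.74, exceeded 94.5% of probes, and Tnfaip6, with 0.65, exceeded 91.9%. Btc was at 0.39 (70.2%), whereas Runx1, with 0.13, was more even than most probes and exceeded only 5.43%. The 95% interval for Edn2 accordingly ran from a ratio of 0.154 to one of 1.9.

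Vehicle mouse 2 had the highest value of all mice for 4 of the 7 tested members, Edn2, Ereg, Vcan and Tnfaip6, while 9.56% of all tested probes were highest on that array. For these genes the ratio to the median of the other 7 mice was 12.9, 4.75, 3.41 and 1.43. The array had 137 missing spots, inside the range of the other arrays. Its share of spots at 0.2 or more was the lowest, at 82.5% beside 82.6% to 83.9% in the others. Ptgs2, the inducible cyclooxygenase of ovulation, read 0.553 in this mouse, within the range of the others. The summed levels of several marker lists were also high in it, and such sums are set mostly by the brightest probes. Of the 8 mice it had the highest summed level of luteal markers (629, in a range of 445 to 629 with vehicle and 363 to 559 with pioglitazone), although 1 of the 9 tested luteal markers, Akr1c18, peaked there. It also had the highest sums of neutrophil and platelet markers (9.09, with 6.26 to 9.09 with vehicle and 4.98 to 8.89 with pioglitazone) and of oviduct and surface epithelium markers (26.6, with 15.9 to 26.6 and 17.8 to 25.9). In each of these lists 1 of the 7 tested markers peaked there, Camp in the first and Krt19 in the second. Krt19 made up most of the second sum (18.4), and Ovgp1 of the same list was at its lowest there (2.01). The sum of macrophage markers was 152 in vehicle mice 1 and 2, in a range of 103 to 152 with vehicle and 94.1 to 126 with pioglitazone, and that of adipocyte markers was 72.2, with 32.2 to 40.3 in the other vehicle mice and 20.7 to 131 with pioglitazone. In vehicle mouse 2, 3 of the 7 tested macrophage markers and 0 of the 6 tested adipocyte markers peaked. Granulosa markers summed to 149 in that mouse, in a range of 144 to 195 with vehicle and 161 to 245 with pioglitazone.

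Between treatments, all 9 tested luteal markers had a negative log2 fold change (median -0.59) and none was under 0.2 in every ovary. Of all 30634 probes tested, 17052 were negative and 13582 positive (median -0.03). Markers of 1 cell type can rise and fall together in a mouse, so counts of their directions are not counts of independent values. None of the luteal markers had an unadjusted limma p under 0.05. With the replicate number as a block 4 did, Star, Cyp11a1, Akr1c18 and Scarb1, where 8.6% of all probes did and 0 passed adjustment. Each of these 4 was lower with pioglitazone in all 4 pairs of mice of the same number. The block fit that picked them uses these same differences within a number, so the pattern is not separate support. The share of all probes with that pattern was not counted, and what a number shares is not known. All 10 granulosa markers had a positive log2 fold change (median 0.25), and 1, follistatin (Fst), had an unadjusted limma p under 0.05, with the block or without it. All 7 macrophage markers were negative (median -0.23), with 0 under an unadjusted limma p of 0.05 and 1 with the block (C1qa). Without the block, Upk3b and Lrrn4 of the oviduct and surface epithelium list also met this threshold (log2 fold change -0.66 and -0.48). For both, and for Padi6 and Myh11 named next, the groups did not overlap, as for 4.59% of all tested probes. The endothelial marker Emcn (-0.45), the oocyte marker Padi6 (-0.28) and the theca and stroma marker Myh11 (0.38) met it too. With the block, all of these but Padi6 met it, as did the neutrophil and platelet markers Camp and Ppbp. None passed adjustment. The part of these cell types in the members' values was not tested.

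Of 21 pairs of members correlated over the 8 mice, 0 passed Benjamini-Hochberg adjustment over the pairs, for Pearson's r or for Spearman's rho (exact permutation tests over all pairings, 2-sided). By rho, 1 pair had an unadjusted p under 0.05, and it was negative, Ptx3 and Vcan (rho -0.76, exact p = 0.0368, adjusted p = 0.349). Its r was -0.60 (exact p = 0.116, adjusted p = 0.388), with -0.56 among the vehicle and -0.90 among the pioglitazone mice. The mice with the highest Edn2, vehicle 2, vehicle 3 and pioglitazone 3, were also the 3 with the highest Vcan (rho 0.71, exact p = 0.0576, adjusted p = 0.349). The same 3 mice had the highest sums of luteal markers (629, 555 and 559, beside 363 to 515 in the others), and they were the top 3 for 4 of the 9 tested luteal markers, Star, Cyp11a1, Parm1 and Idh1. They were also the top 3 for 1 of 9 theca and stroma markers (Col3a1), 1 of 7 neutrophil and platelet markers (Camp) and 1 of 6 endothelial markers (Pecam1). The share of all probes with these top 3 mice was not counted. The part of luteal cells in the Edn2 and Vcan values was not tested. Because Edn2 fell into a set of 3 mice and a set of 5, no Pearson test over all mice is read for Edn2 and Vcan, and neither set is large enough for one. Btc and Runx1 had r = 0.76 (exact p = 0.0212, adjusted p = 0.223) and rho 0.71 (exact p = 0.0576, adjusted p = 0.349), with r = 0.79 among the vehicle and 0.68 among the pioglitazone mice. Without the 2 mice farthest from the median of Btc, which also narrows its range, r was 0.43 (exact p = 0.408). Tnfaip6 and Vcan had r = 0.71 (exact p = 0.0495, adjusted p = 0.346) and rho 0.69 (exact p = 0.0694, adjusted p = 0.349), with r = 0.79 among the vehicle and 0.39 among the pioglitazone mice. Without the 2 mice farthest from the median of Tnfaip6, both under the limit of 0.2 for it, r was 0.94 (exact p = 0.025). Without the 2 farthest from the median of Vcan, r was 0.61.

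**Figure D3:**
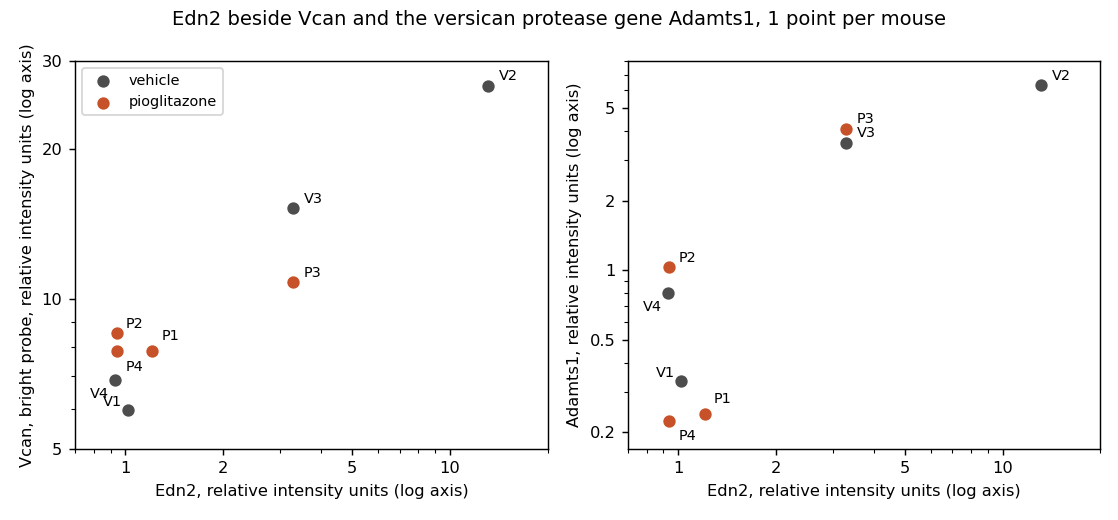
Each point is 1 mouse (V, vehicle; P, pioglitazone; the digit is the replicate number), with Edn2 on the horizontal log axis and Vcan (left) or Adamts1 (right) on the vertical log axis, all in relative intensity units. V2, V3 and P3 are the 3 highest mice for all 3 genes, and the other 5 mice are close together in Edn2, between 0.928 and 1.21.

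Adamts1, the protease that cuts versican in the follicle, was looked at after its values were seen, because it was high in the same mice. It read 0.335, 6.30, 3.56 and 0.80 with vehicle and 0.24, 1.03, 4.08 and 0.225 with pioglitazone. The log2 fold change was -1.18 (SE 1.12, limma adjusted p = 0.885). Among all named probes with at least 0.2 in every ovary (16842 probes), those most like Edn2 over the 8 mice were Lox, which encodes lysyl oxidase, a crosslinker of collagen and elastin (r = 0.992), 2210407C18Rik (r = 0.988) and Asns, the asparagine synthetase gene (r = 0.983). These coefficients rest on the same split of 3 and 5 mice and serve here to rank likeness, with no test. Lox read 4.57, 2.29 and 2.61 in vehicle mice 2 and 3 and pioglitazone mouse 3, and 1.14 to 1.26 in the other mice.

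The other members had other nearest genes, with r given as a measure of likeness over 8 mice and with no test. For Vcan these were Sfxn1 (0.977), Rnf121 (0.976) and 2210407C18Rik (0.972), the last also among the genes nearest to Edn2. For Ptx3 they were Resf1 (0.987), Reps2 (0.986) and Hipk2 (0.985), and for Ereg Fer (0.942), Grb2 (0.936) and Grb10 (0.936). For Btc they were A330009N23Rik (0.989), Ccm2l (0.988) and Wdr34 (0.985), and for Runx1 Batf (0.967), Cts8-ps (0.964) and H2ac13 (0.962). For Tnfaip6 they were Pld2 (0.973), Car8 (0.939) and Hadhb (0.915).

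The rest of the pathway was read from 8 lists of 91 genes, of which 84 were named on the array and 73 could be tested with their brightest probe. An unadjusted limma p under 0.05 was reached by 2 of the 73, Tnr and Sox9, both higher with pioglitazone, and by 0 in the lower direction, beside the 5.5% of all probes. Sox9 had a mean under 0.2 with vehicle and was tested only through its higher pioglitazone mean. Among the 68 genes with a mean of at least 0.2 in both groups, 1 was called, Tnr. The median log2 fold change was -0.01. With the replicate number as a block, 4 of them were called, Tnr, Sox9, Nr5a2 and Adamts1, where 8.6% of all probes were (2635 probes), and none of the members was. In that fit Adamts1 had a log2 fold change of -1.18 (limma adjusted p = 0.575) and Nr5a2, a nuclear receptor of granulosa cells, one of 0.61 (limma adjusted p = 0.575).

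**Figure D4:**
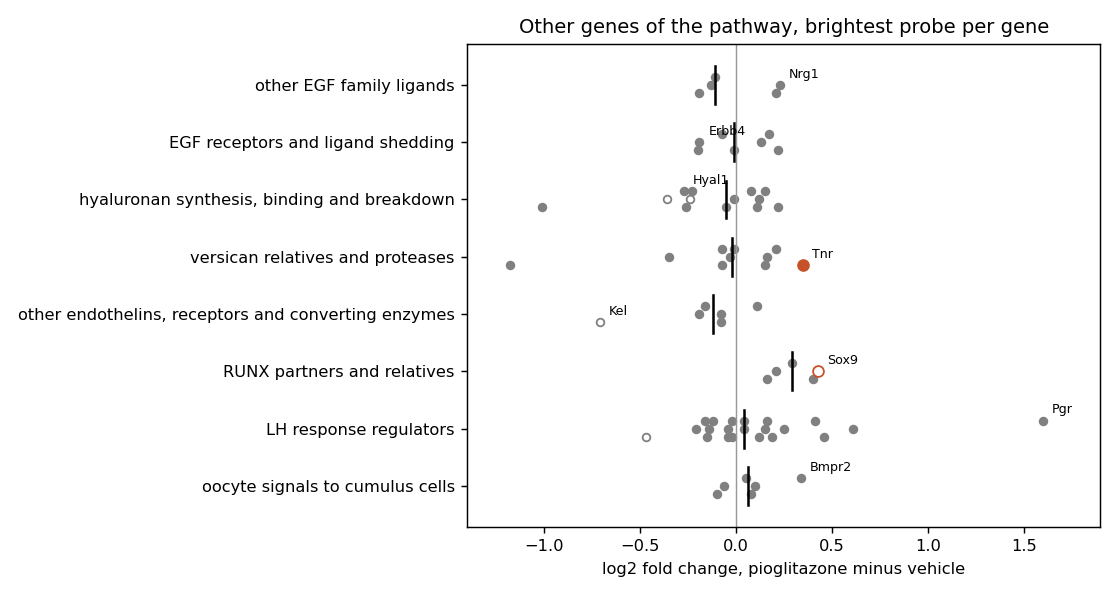
Each point is a gene of the pathway list named at the left, placed at its log2 fold change of pioglitazone over vehicle, and the black tick is the median of the list. Orange marks the genes with an unadjusted p under 0.05, Tnr at 0.35 (filled) and Sox9 (open), open points are the 5 genes with a mean under 0.2 in 1 group, whose position depends on dim values, and labels mark the genes named by rule.

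Of 8 other ligands of the EGF family, 5 could be tested and 0 had an unadjusted limma p under 0.05. The smallest p belonged to Nrg1, which encodes a neuregulin, with 0.313 to 0.489 in the vehicle mice and 0.49 to 0.508 with pioglitazone, which do not overlap, and a log2 fold change of 0.23 (SE 0.17, limma adjusted p = 0.862). All 7 genes of the EGF receptors and of ligand shedding were tested and 0 had an unadjusted limma p under 0.05, the smallest p being that of the receptor Erbb4 (7.74 ± 0.757 with vehicle, 6.77 ± 0.563 with pioglitazone, SD, n = 4). The receptor Egfr itself read 14.6 ± 1.5 and 12.8 ± 2.20 (SD, n = 4, limma adjusted p = 0.876).

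Of 18 genes of hyaluronan synthesis, binding and breakdown, 13 were tested and 0 had an unadjusted limma p under 0.05, and Ambp and Spam1 were under 0.2 in every ovary. The hyaluronidase Hyal1 came closest, at 0.671 ± 0.0751 with vehicle and 0.558 ± 0.0623 with pioglitazone (SD, n = 4, log2 fold change -0.27, limma adjusted p = 0.842). Of 12 relatives and proteases of versican, 10 were tested and 1 had an unadjusted p under 0.05. This was Tnr, which encodes tenascin R, a matrix glycoprotein that binds proteoglycans of the versican family. It read 0.783, 0.689, 0.706 and 0.705 with vehicle and 1.04, 0.909, 0.933 and 0.813 with pioglitazone, so that the groups did not overlap. Its log2 fold change was 0.35 (SE 0.13, limma adjusted p = 0.837).

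Of 7 other endothelins, endothelin receptors and converting enzymes, 6 were tested and 0 had an unadjusted limma p under 0.05. Edn1, the endothelin of vessels, read 1.26 ± 0.0839 and 1.36 ± 0.112, and Edn3 0.452 ± 0.0323 and 0.43 ± 0.0439 (SD, n = 4), so that neither had the wide range of Edn2. The smallest p was that of Kel, a protease that can activate endothelins, which was under 0.2 in 5 of 8 ovaries and tested only through its vehicle mean (limma adjusted p = 0.848). Of 7 partners and relatives of RUNX proteins, 5 were tested. Of these Cbfb, Runx1t1, Cbfa2t3 and Hipk2 had log2 fold changes of 0.21, 0.40, 0.16 and 0.29, with 0 of the 4 under an unadjusted limma p of 0.05, and Runx3 was under 0.2 in every ovary. Sox9, a transcription factor of cartilage and testis, read 0.19, 0.186, 0.188 and 0.206 with vehicle and 0.197, 0.246, 0.297 and 0.311 with pioglitazone. With 4 of 8 ovaries and the vehicle mean (0.193) under the limit, no fold is given. It was tested only through the group in which it was higher, the groups overlapped, and the limma adjusted p was 0.837.

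Of 24 regulators of the response to LH, 21 were tested and 0 had an unadjusted limma p under 0.05. The smallest p was that of Pgr, the progesterone receptor gene needed for follicle rupture. Its bright probe read 1.08, 0.083, 0.384 and 0.528 with vehicle and 1.41, 3.12, 0.599 and 0.574 with pioglitazone, with a log2 fold change of 1.6 (SE 0.79, limma adjusted p = 0.837). Mouse 2 was thus the lowest in one group and the highest in the other, and a second Pgr probe, at 0.44 ± 0.153 and 0.336 ± 0.0728 (SD, n = 4), pointed the other way (-0.34). Of 8 genes of oocyte signals to cumulus cells, 6 were tested and 0 had an unadjusted limma p under 0.05, the smallest p being that of the receptor Bmpr2 (0.613 ± 0.118 and 0.775 ± 0.122, SD, n = 4, limma adjusted p = 0.838). Gdf9, an oocyte factor required for cumulus expansion, read 5.83 ± 0.828 and 5.39 ± 0.36 (SD, n = 4, limma adjusted p = 0.916).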

How the data were processed

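Values deposited by the authors are linear intensities, from which the CodeLink software had taken the background and which were scaled to the median of each slide, with a negative code for missing spots. Here the arrays were scaled once more to a median of 1, with a floor of 0.05 before log2. Probes carry the names of the platform annotation, 1 gene for 21615 of 36227 probes. Tests needed 3 or more values per group and either group's mean at or above 0.2, and used limma 3.58.1 in R 4.3.3 (lmFit, eBayes) with Benjamini-Hochberg adjustment over 30634 probes. Called means an unadjusted p under 0.05. Named are all member probes, the called genes of each pathway list or else the gene with the smallest p, and the 3 genes most like each member. Adamts1, Nr5a2, Ptgs2, Egfr, Edn1, Edn3, Gdf9, Rgs2, the RUNX partners and the marker genes were named after their values were seen. Members and lists were chosen with earlier results of these data known. The 8 arrays are separate mice, and their number limits the precision.

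Alternatives changed the floor, scaling, filter, test, probe choice, block and arrays included. The block used the replicate numbers of the samples, and no source says what a number shares. Deviations from the group means correlated between arrays of the same number by 0.515, 0.181, 0.274 and 0.232, beside -0.528 to 0.369 for other pairs. Only the value of number 1 lay above that range, so a pairing of the mice is not established. The fit was tested on simulated data.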

Additional observations from a re-analysis of the deposited data

Results flagged for a closer look

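Within groups of 4 mice, the gap of the highest or lowest value to its neighbour was set against the range of the group by Dixon's criterion, for the 9 member probes and the named pathway genes. Of 34 groups, 3 held a value apart, where chance flags about 1 in 20, or 1.7 groups. Ereg in vehicle mouse 2 was 2.12, with a gap of 0.885 of the range. Edn2 in pioglitazone mouse 3 was 3.29, with a gap of 0.886 of the range, almost the value of vehicle mouse 3 (3.28). Tnfaip6 in pioglitazone mouse 4 was 0.174, with a gap of 0.911 of the range, under the limit of 0.2.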

How the results depend on the processing

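The call of 0 members held under all 21 alternatives, with limma or another test, and 0 of 139 alternative values of the members' log2 fold changes had a p under 0.05 (smallest 0.098). Of these values 132 kept their direction, as did the 7 differences on linear values. The other 7 were Ptx3 at -0.004 with array weights, and values with 1 mouse left out, whose ranges were -0.063 to 0.68 for Ptx3, -0.462 to 0.148 for Tnfaip6, -0.811 to 0.145 for Ereg and -0.698 to 0.025 for Vcan. Btc (-0.377 to -0.068), Edn2 (-1.366 to -0.092) and Runx1 (-0.167 to -0.065) kept their sign with any 1 mouse left out. With the replicate block, 2635 probes and 4 pathway genes were called, and no call of a member changed. Pathway genes called numbered 4 with quantile normalization (Tnr, Sox9, Nr5a2 and Rgs2), 1 with at least 0.2 in every array, with an intensity trend, with unequal variances and on linear values (Tnr), and 0 to 3 with 1 mouse left out, the 0 without pioglitazone mouse 3 and 1 without vehicle mouse 2 or pioglitazone mouse 4. All probes called numbered 737 to 2443 with 1 mouse left out, the 737 without pioglitazone mouse 4. Member groups not overlapping numbered 0 to 1 with 1 mouse left out, the 1 being Has2, under 0.2 throughout, without pioglitazone mouse 1. With group means taken away, 1 pair, Vcan and Edn2, passed adjustment by Pearson's r, the test that is not read above for this pair. The cause was not tested. Signal limits Has2, Tnfaip6 and the dim Vcan probe, which were near or under the limit of 0.2, and the 4 mice per group limit all intervals.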
